A study of Homo sapiens with 12 samples.

Results

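NF-kB genes were followed through RNA sequencing of LMSU cells, a human line from gastric cancer with the R175H mutation in p53. The 10 genes were chosen by name as the 5 NF-kB subunits (NFKB1, NFKB2, REL, RELA and RELB), 3 feedback genes (NFKBIA, TNFAIP3 and TRAF1) and 2 core target genes that are not cytokines (SOD2 and ICAM1). They are 10 of 25435 gene symbols in the count table, and all 10 were among the 13365 symbols with enough reads to be tested. Among them TRAF1 is carried by few reads in the cells with doxycycline, and its values there are given with their counts.

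NF-kB is a family of transcription factors made of dimers of the 5 subunits. RELA, REL and RELB are made as finished subunits, while NFKB1 and NFKB2 are made as the precursors p105 and p100 and are processed to p50 and p52. IkB proteins such as the product of NFKBIA hold the dimers in the cytoplasm until IkB kinase marks them for destruction. The freed dimers bind kB sites, and NFKBIA, TNFAIP3, NFKB1, NFKB2, RELB and TRAF1 are textbook targets of the pathway that also feed back on it. In many tumour cells, inflammatory cytokines keep the pathway partly switched on.

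The 12 libraries fell into 6 groups of 2. In the knockout arm, cells without doxycycline carried either the construct labelled GFP_V2, called the knockout control here, or the p53 guide construct labelled GFP_sg-1, called the p53 knockout. In the knockdown arm, all cells were grown with doxycycline and carried a scramble hairpin, p53 shRNA 1, p53 shRNA 2 or the vector. The labels mark mutant p53 as present in the knockout control, the scramble and the vector groups and as absent in the other 3. Every group shares the LMSU background with its R175H mutation, and the arms differ in construct as well as in doxycycline, so these cannot be told apart between arms. The labels do not say whether the 2 libraries of a group are separate cultures, nor whether a construct is carried by a clone or a pool, so p-values measure only the spread between these libraries, which may be technical.

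The genome sequence just before the start of several of these genes holds a match to the kB decamer, the consensus bound by NF-kB dimers. Promoter windows from RefSeq (GRCh38.p14, 250 bases before to 50 bases after a transcription start) were available for 9 of the 10 genes, all but RELB. On both strands, the decamer was found in a window of 5 of these 9 genes (55.56%), against 13.25% of 27305 genes in the same table. Per window the shares were 6 of 18 (33.33%) for these genes and 11.27% of all 35116 windows. The genes were picked as members of the pathway, so this share is a description of them. The matches are shown here because NFKB1, NFKB2, NFKBIA and TNFAIP3 are the genes whose levels are followed below, and REL is shown as a gene with a match that was called in no comparison of the fit to all 12 libraries. Each line gives at most 30 bases, 5′ to 3′ on the strand of the gene, with the matched bases in capitals.
NFKB1, chr4:102501300-102501329, plus strand: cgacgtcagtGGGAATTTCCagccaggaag
NFKB2 upstream window, chr10:102394462-102394490, plus strand: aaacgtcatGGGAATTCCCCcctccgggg
NFKB2 upstream window, chr10:102394490-102394519, plus strand: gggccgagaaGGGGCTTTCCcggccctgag
NFKB2 downstream window, chr10:102395519-102395548, plus strand: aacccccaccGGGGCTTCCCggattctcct
NFKB2 downstream window, chr10:102395674-102395703, plus strand: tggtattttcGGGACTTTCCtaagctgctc
NFKBIA, chr14:35404811-35404840, minus strand: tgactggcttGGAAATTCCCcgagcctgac
REL, chr2:60881518-60881546, plus strand: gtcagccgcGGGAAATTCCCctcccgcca
TNFAIP3, chr6:137867188-137867217, plus strand: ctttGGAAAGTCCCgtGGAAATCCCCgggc

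The NFKBIA match ends 72 bases before the start, and the TNFAIP3 window holds 2 decamers between 67 and 46 bases before it. In the REL window and in the first NFKB2 line, 2 decamers overlap, offset by a single base. GENCODE 29, also on GRCh38, has exons of other transcripts of the same gene over part of the NFKB1, REL and TNFAIP3 stretches and over both stretches of the NFKB2 upstream window, so the windows are promoters only with respect to their own start. A further NFKB2 window (chr10:102393860-102394159) lies before both the windows labelled upstream and downstream here, and it held no decamer. A further NFKB1 window (chr4:102501684-102501983) held none either. No decamer was found in the windows of RELA, SOD2, TRAF1 or ICAM1, which says only that these letters are not in those windows.

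Library totals ran from 9738094 to 16823246 counts. Of the markers of the labelled tissue, EPCAM, CDH1, KRT19, CLDN3, ESRP1 and ELF3 had at most 5 counts in any library, TFF1 and TFF2 had none, and KRT8 and KRT18 were present at 63.9 to 283 CPM (counts per 1000000, scaled by TMM, a normalisation of library size). Genes typical of fibroblasts were high, with 10 listed genes summing to 10066 to 12543 CPM without doxycycline and 28408 to 34600 CPM with it. CD68 was the only leukocyte marker of 8 that passed the filter on counts, and the 4 endothelial markers summed to at most 1.78 CPM. The 2 libraries of a group differed by more than sampling noise in every group. As edgeR's common coefficient of biological variation, the spread among knockout-arm libraries was 15.6%, that among knockdown-arm libraries 3.07%, and it was 9.55% in the fit to all 12 libraries used for the tests. The tests and their standard errors thus rest on a common spread below that of the knockout arm and above that of the knockdown arm.

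**Figure D1:**
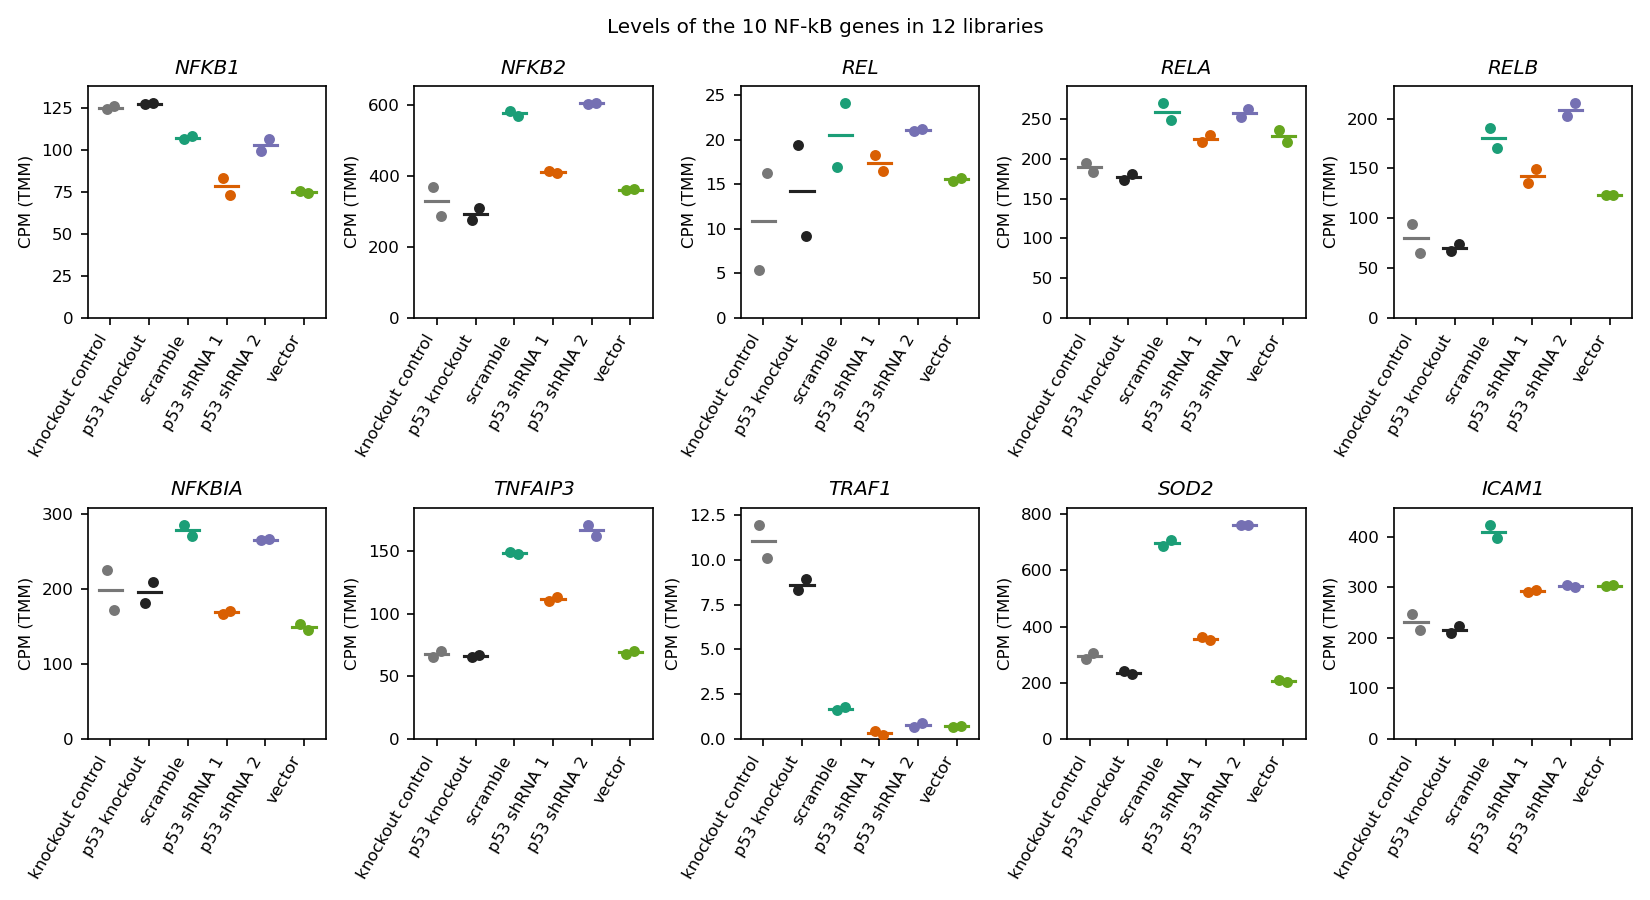
Level of each of the 10 genes (vertical axis, TMM-normalised CPM, starting at 0) in the 6 groups (horizontal axis); each point is a library and each bar the mean of 2. SOD2 was between 686 and 762 CPM in the scramble and shRNA 2 libraries and at or below 361 CPM in all others.

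In the knockout arm, none of the 10 NF-kB genes passed the test between cells with and without the p53 guide. Here a gene is called when its Benjamini-Hochberg adjusted p in edgeR's quasi-likelihood test is below 0.05. The share called was 0 of the 10, while 0.0150% of all tested genes were called. At an unadjusted p below 0.05 there were 2 of the 10 and 859 of 13365 genes in all, and DESeq2 and limma-voom also called 0 of the 10. The median log2 fold change of the 10 genes was -0.10, against -0.01 over all genes.

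SOD2, which encodes the manganese superoxide dismutase of mitochondria, had the smallest p-value of the 10. Its level was 286 and 308 CPM in the knockout control and 242 and 231 CPM in the p53 knockout. The groups did not overlap, and the log2 fold change was -0.33 ± 0.07 (SE, n = 2 and 2, edgeR adjusted p = 0.333). TRAF1, an adaptor of the TNF receptor family, was at 11.96 and 10.1 CPM in the knockout control and at 8.31 and 8.93 CPM in the knockout (log2 fold change -0.36 ± 0.15, edgeR adjusted p = 0.762). The knockout libraries of TRAF1 were both below the control libraries, but the difference did not pass the test.

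NFKB2, RELB and NFKBIA varied more within the knockout control than between the groups. NFKB2 was at 369 and 287 CPM in the knockout control and 275 and 310 CPM in the knockout. RELB, the partner of p52, was at 94.4 and 65.2 CPM against 66.6 and 74.1 CPM, and NFKBIA at 226 and 172 CPM against 181 and 210 CPM. In all 3 genes the first control library was the highest and the groups overlapped. REL moved most between libraries of a group, with 5.36 and 16.3 CPM in the control and 19.4 and 9.14 CPM in the knockout. NFKB1 (124 and 126 CPM against 127 and 128), RELA (195 and 184 against 173 and 181), TNFAIP3 (65.6 and 70.7 against 65.3 and 67.0) and ICAM1 (247 and 216 against 209 and 223) were also not called, with log2 fold changes from -0.10 to 0.03.

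The count in the knockout arm depended on the control libraries. Without knockout control replicate 1, SOD2 alone was called (log2 fold change -0.38, edgeR adjusted p = 0.0408). Without knockout control replicate 2, NFKB2, RELB and SOD2 were called lower and REL higher, 4 of the 10, while 30.8% of all genes were then called. In these fits the lone control library was assumed to vary like the other groups.

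In the knockdown arm 5 of the 10 genes had nearly the same order of groups, and that order did not follow the labels for mutant p53. For SOD2, TNFAIP3, NFKB2 and RELB, shRNA 2 was highest, the scramble next, shRNA 1 lower and the vector lowest. NFKBIA had the same order except that the scramble was above shRNA 2. Neighbouring groups did not overlap in any of these 5 orders, but not every step was called in the fit to all 12 libraries. The step between scramble and shRNA 2 was called for none of the 5. That between shRNA 1 and vector was not called for NFKB2, RELB and NFKBIA, nor that between shRNA 1 and scramble for RELB. The share of all genes without such overlap was not counted. The 2 groups at the top are thus a control and a p53 hairpin, and so are the 2 at the bottom.

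SOD2 had the widest range of the 9 genes other than TRAF1. It was at 686 and 707 CPM with the scramble, 361 and 353 CPM with shRNA 1, 762 and 760 CPM with shRNA 2, and 209 and 203 CPM with the vector. The highest group mean was 3.70 times the lowest. TNFAIP3, which encodes the ubiquitin-editing enzyme A20 that shuts down signalling to IkB kinase, was at 150 and 147 CPM with the scramble, 111 and 113 CPM with shRNA 1, 171 and 162 CPM with shRNA 2, and 67.9 and 70.5 CPM with the vector. Its highest group mean was 2.41 times its lowest, and its groups did not overlap. The step between scramble and shRNA 2 was not called (edgeR adjusted p = 0.258).

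NFKBIA, whose product IkB-alpha is the first inhibitor to be remade after activation, was at 286 and 271 CPM with the scramble, 168 and 171 CPM with shRNA 1, 266 and 267 CPM with shRNA 2, and 153 and 146 CPM with the vector. NFKB2 was at 583 and 569, 413 and 407, 603 and 605, and 360 and 361 CPM in the same groups, in the same sequence. RELB was at 191 and 170, 135 and 149, 202 and 215, and 123 and 124 CPM. In these 3 genes all scramble and shRNA 2 libraries were above all shRNA 1 and vector libraries.

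NFKB1 was at 106 and 108 CPM with the scramble, 83.3 and 73.0 CPM with shRNA 1, 99.5 and 107 CPM with shRNA 2, and 75.3 and 74.3 CPM with the vector. Scramble overlapped shRNA 2 and shRNA 1 overlapped the vector, and both scramble and shRNA 2 lay above the other groups. RELA, the main activating subunit, stayed within a narrow range of 221 to 270 CPM over the 8 libraries, with 270 and 249 CPM in the scramble, 222 and 230 in shRNA 1, 254 and 263 in shRNA 2 and 236 and 221 in the vector. REL was low at 15.4 to 24.1 CPM, and its scramble libraries, at 16.9 and 24.1 CPM, enclosed both shRNA 2 libraries (20.9 and 21.2 CPM) and lay above both vector libraries (15.4 and 15.7 CPM).

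ICAM1 and TRAF1 followed other orders. ICAM1, an adhesion molecule for leukocytes, was at 424 and 396 CPM with the scramble and between 291 and 304 CPM in all 6 libraries of shRNA 1, shRNA 2 and the vector. Its scramble group therefore stood alone. TRAF1 was at 1.62 and 1.80 CPM with the scramble (20 and 24 counts), 0.449 and 0.214 CPM with shRNA 1 (5 and 2 counts), 0.655 and 0.923 CPM with shRNA 2 (8 and 12 counts) and 0.679 and 0.742 CPM with the vector (9 and 12 counts). The scramble was again the highest group, and shRNA 2 and the vector overlapped.

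**Figure D2:**
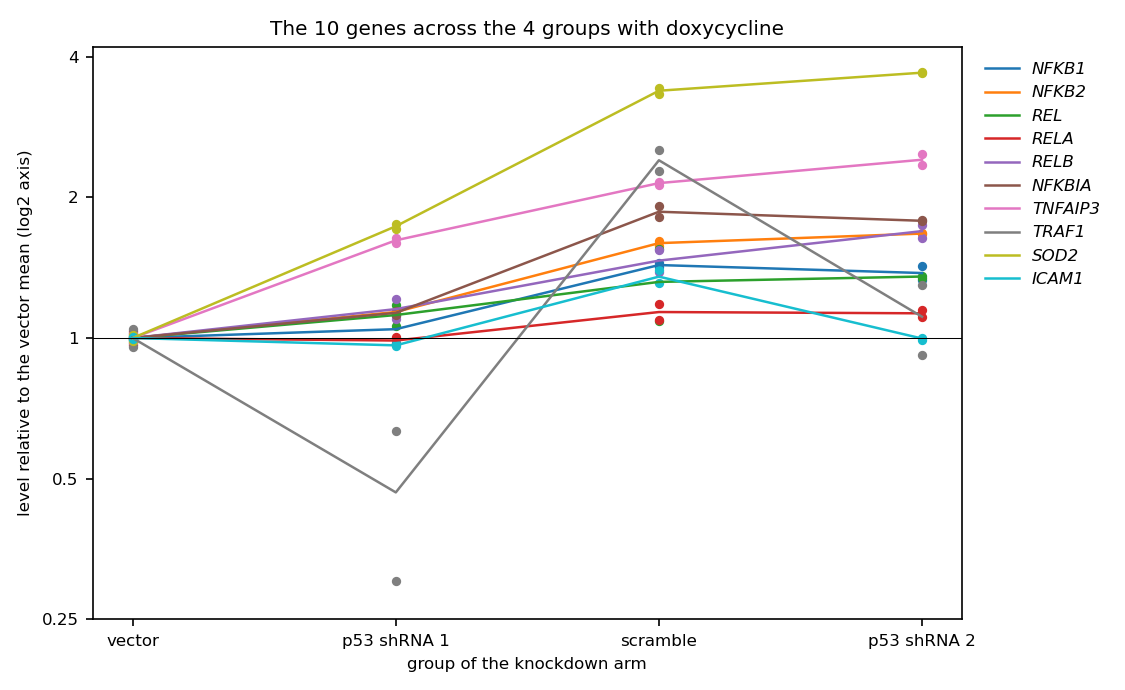
Level of each gene relative to its mean in the vector group (vertical axis, log2-scaled ratio) in the 4 groups with doxycycline (horizontal axis); points are libraries and lines join group means for reading only. SOD2, TNFAIP3, NFKB2, RELB, NFKBIA and REL were above both vector libraries in every library of the 3 other groups. ICAM1 was so only in the scramble group, and TRAF1 was lowest with shRNA 1, where it rests on 5 and 2 counts.

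With shRNA 1, 7 of the 10 genes were lower than with the scramble hairpin and none was higher. The 7 were NFKB1, NFKB2, NFKBIA, TNFAIP3, TRAF1, SOD2 and ICAM1, that is 2 subunits, all 3 feedback genes and both targets. Over all genes 9.41% were called in either direction and 5.01% were called lower. The median log2 fold change of the 10 genes was -0.47, against 0.00 over all genes.

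SOD2 had a log2 fold change of -0.96 ± 0.07 (edgeR adjusted p = 4.05e-05), which is 0.513 of its scramble level. NFKBIA fell by 0.72 (SE 0.12, edgeR adjusted p = 0.00380) and TRAF1 by 2.29 (SE 0.40, edgeR adjusted p = 0.00487), the latter on few counts. The remaining 4 called genes fell by 0.41 (TNFAIP3) to 0.49 (NFKB2 and ICAM1), with NFKB1 at 0.46. RELA (log2 fold change -0.20, adjusted p = 0.154), RELB (-0.35, adjusted p = 0.172) and REL (-0.24, adjusted p = 0.792) were not called by edgeR, although both shRNA 1 libraries of RELA and RELB lay below both scramble libraries. With a single library left out, the count dropped to 4 without scramble replicate 2 and to 3 without scramble replicate 1, without shRNA 1 replicate 1 or without shRNA 1 replicate 2. SOD2 passed in all 4 of these fits, whereas NFKB2 and TNFAIP3 passed in none of them.

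Against the same scramble libraries, only ICAM1 of the 10 genes was called with shRNA 2. ICAM1 was lower, with a log2 fold change of -0.44 ± 0.08 (edgeR adjusted p = 0.00937). The background was 7.74% of all genes called in either direction and 4.15% called lower, so 1 of 10 is near it. The median log2 fold change of the 10 genes was 0.01. TRAF1 was lower in both shRNA 2 libraries (log2 fold change -1.10 ± 0.31) but had an edgeR adjusted p of 0.0562. The other 8 genes had log2 fold changes from -0.06 to 0.21, with SOD2 at 0.13 ± 0.07, TNFAIP3 at 0.17 ± 0.08, RELB at 0.21 ± 0.14 and NFKBIA at -0.06 ± 0.12.

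The shRNA 2 count depended on the fit. In a fit to the 8 libraries of the knockdown arm alone, where the spread is smaller, 5 of the 10 were called: RELB, TNFAIP3 and SOD2 higher, and ICAM1 and TRAF1 lower, with 30.5% of all genes called. TRAF1 rests here on 20 and 24 counts with the scramble and 8 and 12 with shRNA 2. At a minimum count of 50 it stays in the test only through the knockout arm, at 112 to 172 counts. Without any single library of the 4 compared, none of the 10 was called, and without a filter on low counts or with a minimum count of 50, TRAF1 joined ICAM1.

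The 2 hairpins against p53 were then compared directly, which is the test of whether their effects against the shared scramble differ. SOD2, TNFAIP3, NFKBIA, NFKB2, RELB and NFKB1 were lower with shRNA 1 than with shRNA 2, 6 of the 10, and none was higher. Of all genes, 14.3% were called in either direction and 7.21% were called lower. SOD2 differed most (log2 fold change -1.09 ± 0.07, edgeR adjusted p = 2.15e-05). NFKBIA (-0.66 ± 0.12), TNFAIP3 (-0.57 ± 0.08), NFKB2 (-0.56 ± 0.11), RELB (-0.56 ± 0.14) and NFKB1 (-0.40 ± 0.09) followed.

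ICAM1, at 291 and 294 CPM with shRNA 1 and 304 and 301 CPM with shRNA 2, was not called (log2 fold change -0.05 ± 0.08, edgeR adjusted p = 0.763). RELA (-0.19 ± 0.08) and REL (-0.27 ± 0.40) were not called either, nor was TRAF1 (-1.19 ± 0.47, edgeR adjusted p = 0.160). The count fell to 3, namely SOD2, NFKBIA and TNFAIP3, without shRNA 1 replicate 2 or without shRNA 2 replicate 2. Those 3 genes were called in all 4 fits that left out a library of either hairpin.

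Against the vector, all called genes of the 10 were higher with either hairpin. With shRNA 1, TNFAIP3 (log2 fold change 0.69 ± 0.08, edgeR adjusted p = 0.000323) and SOD2 (0.80 ± 0.07, edgeR adjusted p = 8.80e-05) were higher and none was lower, 2 of 10 against 13.0% of all genes called and 5.78% called higher. With shRNA 2, NFKB1, NFKB2, RELB, NFKBIA, TNFAIP3 and SOD2 were higher, 6 of 10 against 21.0% called and 9.21% called higher. The largest of these were SOD2 at 1.89 ± 0.08 and TNFAIP3 at 1.27 ± 0.08, and NFKBIA (0.83 ± 0.12), RELB (0.76 ± 0.14), NFKB2 (0.74 ± 0.11) and NFKB1 (0.46 ± 0.09) were smaller. In the fit to the knockdown arm alone, shRNA 1 against vector had 5 genes called higher, with NFKB2, RELB and NFKBIA added and 39.6% of all genes called.

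The 2 controls of the knockdown arm differed from each other. Scramble was called above vector for 8 of the 10 genes, all but REL and RELA, and below it for none. Over all genes 15.3% were called and 7.10% were called higher. Both scramble libraries of REL and RELA also lay above both vector libraries. In the fit to the knockdown arm alone all 10 were called higher, with 40.9% of all genes called. SOD2 was higher by 1.76 ± 0.08 (log2, edgeR adjusted p = 2.28e-07), TRAF1 by 1.25 ± 0.31, TNFAIP3 by 1.10 ± 0.08 and NFKBIA by 0.90 ± 0.12. NFKB2 (0.68 ± 0.11), RELB (0.55 ± 0.14), NFKB1 (0.52 ± 0.09) and ICAM1 (0.44 ± 0.08) were also called. The count was 5 without scramble replicate 1 or without vector replicate 1, and RELB and TRAF1 were lost in each of the 4 fits with a library left out. The comparisons with the scramble share its 2 libraries, and those with the vector share the vector libraries, so they are not independent of each other.

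**Figure D3:**
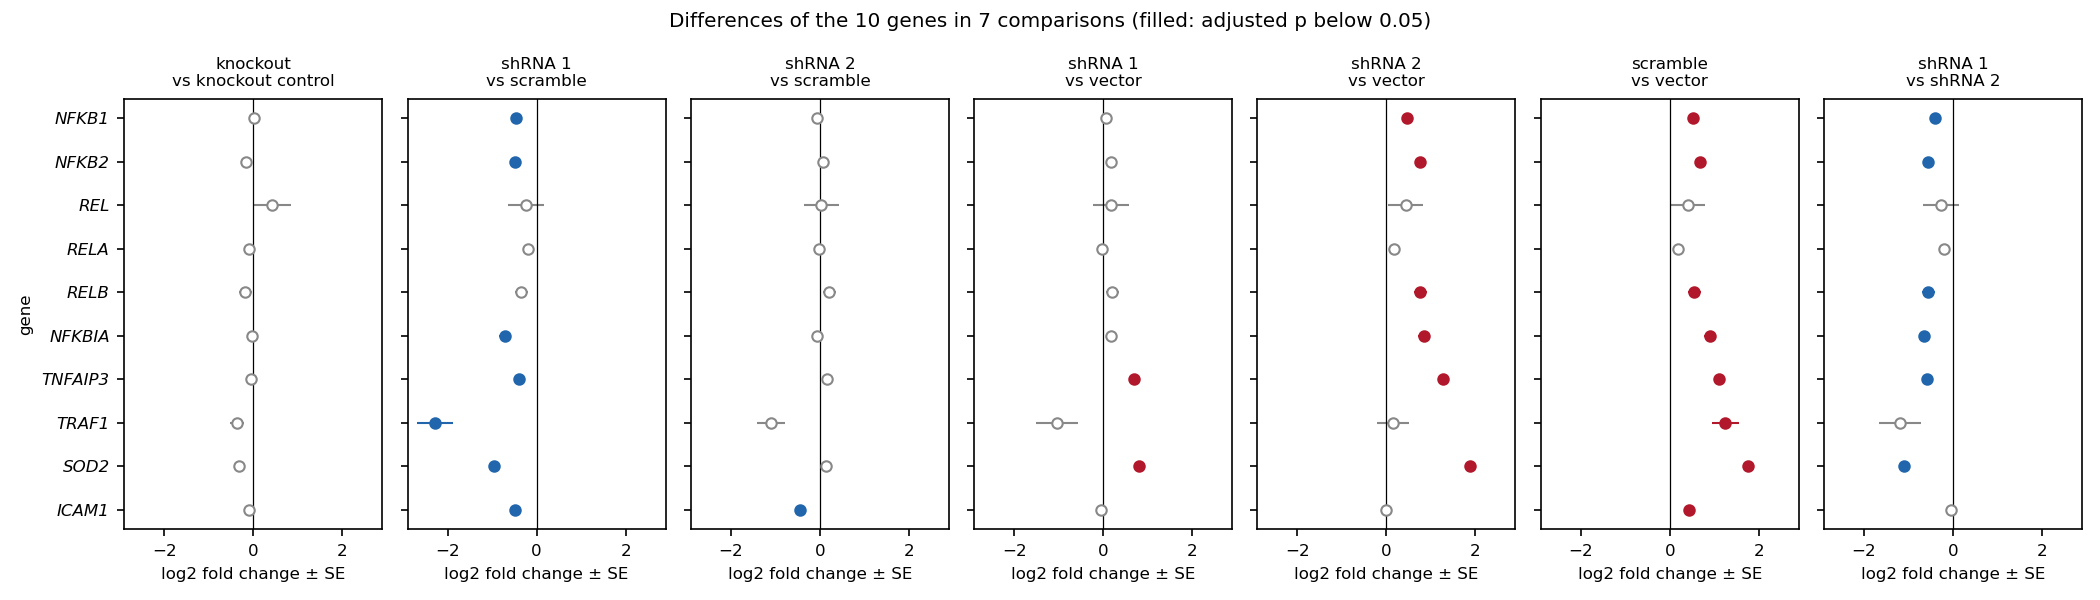
Log2 fold change (horizontal axis, with its standard error as a bar) of the 10 genes (vertical axis) in 7 comparisons; filled points have an edgeR adjusted p below 0.05, red higher and blue lower. The knockout panel has no filled point, shRNA 1 against scramble has 7 blue points, and scramble against vector has 8 red points.

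The summed level of the 10 fibroblast genes varied across the same groups, at 29545 to 30833 CPM with the scramble, 32342 to 34600 CPM with shRNA 1, 28408 to 28759 CPM with shRNA 2 and 31475 to 31482 CPM with the vector. The sum is carried mostly by VIM, COL1A1 and COL1A2, and its genes did not move as a block. With scramble against vector 6 of the 10 were called higher and 1 lower, THY1 (median log2 fold change 0.62), and with shRNA 1 against shRNA 2 there were 1 higher and 3 lower. DCN was above the vector by 2.14 ± 0.08 (log2) with shRNA 1, 2.22 ± 0.08 with the scramble and 3.09 ± 0.09 with shRNA 2. LUM was above it by 1.19 ± 0.08, 1.44 ± 0.08 and 2.24 ± 0.08, and PDGFRB by 0.61, 0.83 and 1.09. DCN, LUM and PDGFRB had the group order of SOD2, and the other listed genes did not. In that order the step between shRNA 1 and scramble was called for none of them (edgeR adjusted p = 0.603, 0.0853 and 0.126). For PDGFRB the step between scramble and shRNA 2 was not called either (edgeR adjusted p = 0.0848). In the same sequence POSTN was at 0.99, 1.13 and 0.83 and FAP at 0.61, 0.66 and 0.50. COL3A1 was at 1.29, 0.58 and 0.61 and THY1 at -1.21, -0.46 and -1.43. The part of these markers in the differences of the NF-kB genes was not tested. In bulk RNA, fewer cells with a gene on and less RNA of it per cell cannot be told apart.

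The effect of the knockout was set against the mean effect of the 2 hairpins in a single contrast. The hairpin effects in it were those against the scramble, and the vector did not enter. None of the 10 genes was called, against 1.10% of all genes. At an unadjusted p below 0.05 there were 4 of the 10 (NFKB1, NFKBIA, TRAF1 and ICAM1) and 1957 of 13365 genes in all, and DESeq2 and limma-voom also called 0. TRAF1 had the largest value, with a log2 difference of 1.33 ± 0.34 and an edgeR adjusted p of 0.0842, which became 0.0422 without a filter on low counts. Without knockout control replicate 1, NFKBIA, TRAF1 and ICAM1 were called, and without knockout control replicate 2, REL, RELB, TRAF1 and ICAM1 were. The mean over both hairpins joins effects that differed between shRNA 1 and shRNA 2 for 6 of the genes. The values also depend on the control, since the scramble was above the vector for 8 of the 10 genes. Against the vector, TRAF1 was at -1.04 (log2, shRNA 1) and 0.15 (shRNA 2) and ICAM1 at -0.05 and -0.004. NFKB1 was at 0.06 and 0.46, and NFKBIA at 0.18 and 0.83. The same contrast with the vector as control was not run.

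Between the arms, TRAF1 stood out by its level. It was at 8.31 to 11.96 CPM in the 4 libraries without doxycycline and at 0.214 to 1.80 CPM in the 8 with it, and its mean in the knockout control was 6.47 times that of the scramble and 15.5 times that of the vector. NFKB1 was also higher in the knockout arm (124 to 128 CPM) than in any library of the other arm (73.0 to 108 CPM). RELB (65.2 to 94.4 CPM against 123 to 215 CPM) and ICAM1 (209 to 247 CPM against 291 to 424 CPM) were lower in the knockout arm in every library. So was RELA (173 to 195 CPM against 221 to 270 CPM). The share of all genes that separate the arms in this way was not counted. TNFAIP3 in the knockout arm (65.3 to 70.7 CPM) was at the level of the vector. These levels were not tested between arms, and they rest on TMM factors of 1.05 to 1.14 (knockout arm) and 0.93 to 0.97 (knockdown arm).

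Genes of the wider pathway were taken from 5 lists. The other IkB proteins were all tested, 5 of 5. With shRNA 1 against scramble 1 of the 5 was called, NFKBIE, which fell (log2 fold change -0.55 ± 0.15), against 9.41% of all genes. With shRNA 2 against scramble it was 0 of 5, against 7.74%. Scramble was above vector for 2 of 5, NFKBIZ (1.05 ± 0.11) and NFKBIE (0.71 ± 0.15), against 15.3% of all genes called, and shRNA 2 was above vector for these and for NFKBIB, 3 of 5 against 21.0%. Between the hairpins 2 of 5 were called against 14.3% of all genes, with NFKBIB (-0.71 ± 0.15) and NFKBIE (-0.63 ± 0.15) lower with shRNA 1. NFKBIE and NFKBIB encode cytoplasmic inhibitors like IkB-alpha, and NFKBIZ a nuclear IkB protein.

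Of 11 genes of the IkB kinase complex and its upstream kinases, none was called with shRNA 1 against scramble (all genes 9.41%) and 1 with shRNA 2 (all genes 7.74%), CHUK (IkB kinase alpha), which was lower (-0.65 ± 0.13). CHUK was higher in the scramble than in the vector group (0.90 ± 0.13) and higher with shRNA 1 than with shRNA 2 (0.47 ± 0.13), so it was not in step with SOD2. The kinase list had 2 of 11 called with shRNA 1 against vector (all genes 13.0%), 1 with shRNA 2 against vector (21.0%), 1 with scramble against vector (15.3%) and 2 between the hairpins (14.3%). Of 11 tested receptors and adaptors of 13 listed (TNFRSF1B and CD40 had too few counts), none was called with shRNA 1 against scramble and 1 with shRNA 2. The list had 1 of 11 called with shRNA 1 against vector, 4 with shRNA 2 against vector, 3 with scramble against vector and 2 between the hairpins, to be read against the same shares. IL1R1, the signalling receptor of interleukin 1, was higher with shRNA 2 than with scramble (0.65 ± 0.11), and TRAF3 was higher than in the vector group with the scramble (0.43 ± 0.08), shRNA 1 (0.46 ± 0.08) and shRNA 2 (0.55 ± 0.08).

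Among 10 genes of ubiquitin editing, 3 were lower and none higher with shRNA 1 against scramble, where 9.41% of all genes were called and 5.01% were lower. They were CYLD (-0.66 ± 0.15), a deubiquitinase, BIRC3 (-0.63 ± 0.17), a ubiquitin ligase of TNF receptor complexes, and TNIP1 (-0.38 ± 0.11), a binding partner of A20. With shRNA 2 against scramble none of the 10 was called, against 7.74% of all genes. Scramble against vector had 3 of 10 called, against 15.3%: BIRC3 (1.16 ± 0.17) and CYLD (0.92 ± 0.15) were higher and RBCK1 (-0.49 ± 0.13) lower.

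Other target genes that are not cytokines were tested in 19 of 20 cases, all but VCAM1. With shRNA 1 against scramble 8 were lower and none was higher (all genes 9.41% called), with a median log2 fold change of -0.49 against 0.00 over all genes. The smallest adjusted p-values were those of CD83 (-1.39 ± 0.16), SDC4 (-0.70 ± 0.09), RIPK2 (-0.55 ± 0.08) and MMP9 (-1.21 ± 0.19). With shRNA 2 against scramble 2 were higher, PTGS2 (0.98 ± 0.16) and PLAU (0.49 ± 0.11), and 1 was lower, TNFRSF9 (-0.70 ± 0.10), where 7.74% of all genes were called. Scramble against vector had 10 higher and 2 lower (all genes 15.3% called), and the smallest adjusted p-values were those of MMP9 (3.23 ± 0.23) and PTGS2 (2.03 ± 0.17), which encodes cyclooxygenase 2. Between the hairpins 11 were lower with shRNA 1 and 1 was higher, TNFRSF9 (0.97 ± 0.10), against 14.3% of all genes called. In the vector comparisons, shRNA 1 had 5 higher and 3 lower (all genes 13.0%) and shRNA 2 had 10 higher and 3 lower (all genes 21.0%). In the knockout arm none of the genes in the 5 lists was called.

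**Figure D4:**
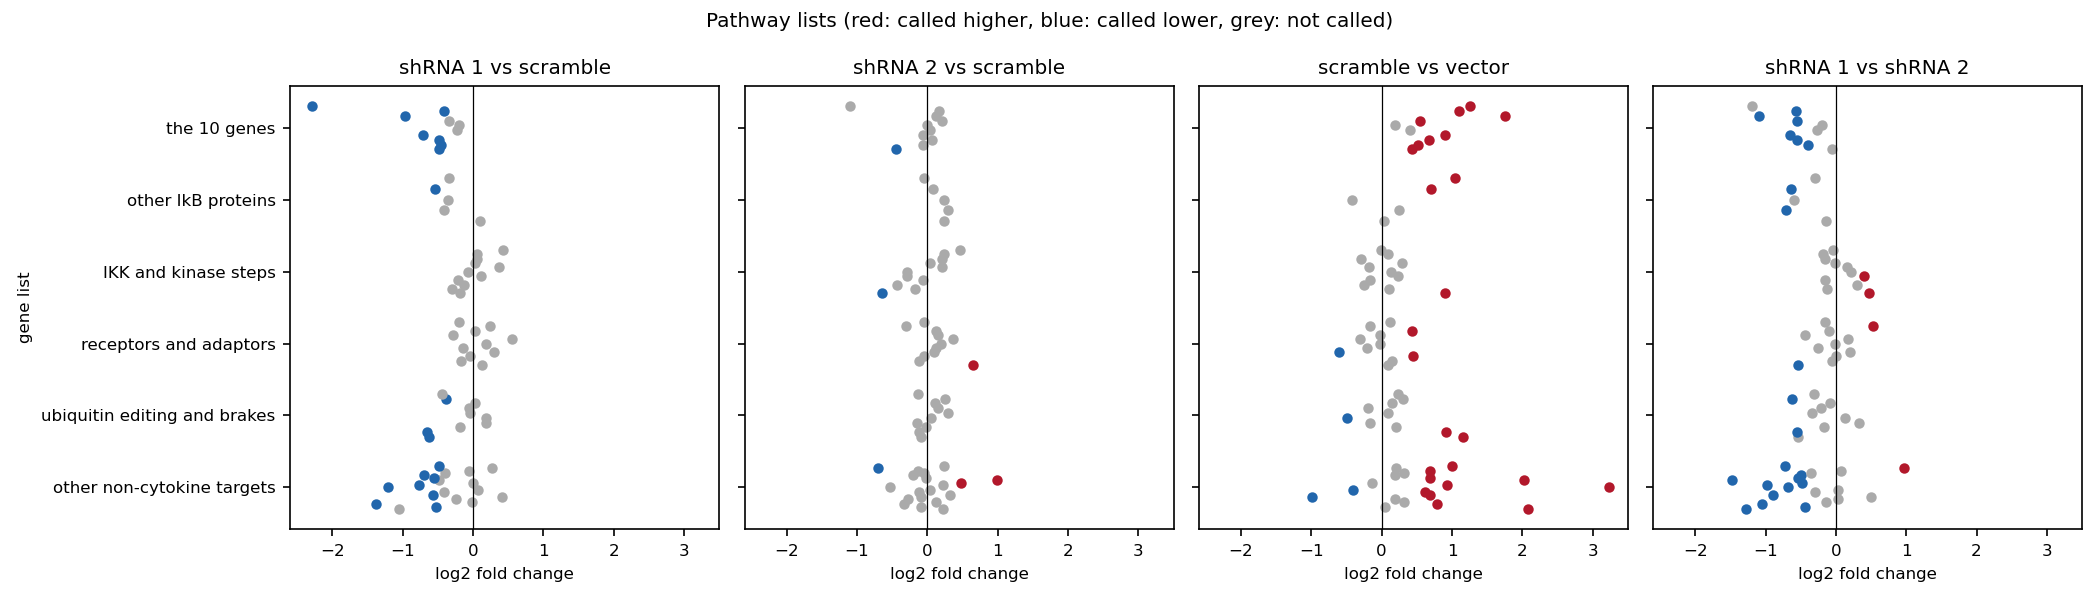
Log2 fold change (horizontal axis) of each tested gene of the 10 and of the 5 pathway lists (vertical axis) in 4 comparisons; red was called higher, blue lower and grey not called. In these 4 comparisons the kinase and receptor lists have at most 3 called genes of 11 each, while the targets have 8 blue points with shRNA 1 against scramble and 10 red points with scramble against vector.

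The genes with the most similar pattern over the 12 libraries were found by Pearson correlation of log2 CPM among 9163 genes with a mean of at least 5 CPM. The libraries share groups and arms, so these values only describe likeness. NFKB2 was most like PLAUR (r = 0.99), RELB most like STX1A and A4GALT (both r = 0.99), SOD2 most like ITPRIP (r = 0.99) and INHBA (r = 0.97), and TNFAIP3 most like SLC25A37 (r = 0.99). NFKBIA was most like NDUFAF7 (r = 0.97) and NFKBIE (r = 0.96), and TRAF1 most like FCF1 (r = 0.99). Among the 10 genes themselves, RELA and RELB were the most alike (r = 0.97), followed by NFKB2 with RELB and TNFAIP3 with SOD2 (r = 0.95 each).

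The interleukin genes IL1A and IL1B, which act through the same pathway and are its targets, were measured in the same libraries. IL1B averaged 190 CPM with the scramble, 90.2 with shRNA 1, 249 with shRNA 2 and 27.4 with the vector, the order seen for SOD2, while IL1A averaged 46.2, 14.4, 32.7 and 5.94 CPM.

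SOD2 exons overlap exons of WTAP and ACAT2 on the opposite strand in GENCODE 29, and the strand setting of the counting is not given in the sources used here. WTAP had at most 1131 counts and ACAT2 at most 519 in any library, against 2765 to 9878 for SOD2.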

How the data were processed

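Gene counts of 12 LMSU libraries were taken as deposited by the authors: whole-number counts per gene symbol, not normalised. Per the labels' protocols, RNA was extracted with RNeasy columns and libraries were made with a Kapa mRNA kit. Per the submitters' processing notes, bcl2fastq, STAR 2.5 and build hg19 were used; annotation, counting mode and strand were not given in the sources used here. From the counts, edgeR 4.0.16 (R 4.3.3) fitted 1 quasi-likelihood model to all 12 libraries with TMM scaling, filterByExpr with a minimum count of 10, 6 residual degrees of freedom and Benjamini-Hochberg adjustment over 13365 symbols, for 8 comparisons. SE is the log2 fold change divided by the square root of F. The fit was tested on simulated data. Alternatives were DESeq2 1.42.0, limma-voom (limma 3.58.1), other scaling, filters, thresholds and sets of libraries, and a replicate block. All 10 members were named in every comparison, and from each pathway list up to 4 called genes with the smallest adjusted p. The members, lists and tests were chosen with earlier results of these data known. Replicate numbers did not pair libraries. Depth limits precision mainly for TRAF1 (2 to 24 counts in the knockdown arm). Promoter windows are RefSeq, GRCh38.p14. No coordinates were converted between builds. An item that the naming rule covers is not reported here.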

Additional observations from a re-analysis of the deposited data

Results flagged for a closer look

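SOD2, NFKBIA, TNFAIP3, NFKB2, RELB and NFKB1 were picked out because the effect of the 2 hairpins against the shared scramble libraries differed by a test of the difference itself, which is the direct comparison of shRNA 1 with shRNA 2. The log2 effect of shRNA 1 minus that of shRNA 2 was -1.09 for SOD2, -0.655 for NFKBIA, -0.573 for TNFAIP3, -0.558 for NFKB2, -0.555 for RELB and -0.399 for NFKB1. The edgeR adjusted p-values ran from 2.15e-05 (SOD2) to 0.0243 (RELB). In every one of these 6 genes both shRNA 1 libraries were below both shRNA 2 libraries. The same was so for REL, RELA, TRAF1 and ICAM1, which were not called. The 6 were picked by a test on these same libraries, so the lack of overlap adds no support. The cause of the difference was not tested.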

How the results depend on the processing

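Of 300 called values under other settings, 295 kept their direction and call, and the 5 others were lost only at an adjusted p below 0.01. With a single library left out, 82 of 120 kept their call. No called value changed direction. Of 725 values called in neither fit, 34 changed sign. The counts of called genes that moved were, for shRNA 2 against scramble, 2 without a filter, 2 with a minimum count of 50, 5 with the compared groups alone and 5 with the arm alone. For shRNA 1 against vector they were 5 with the compared groups alone and 5 with the arm alone, and for the knockout against the knockdown effect 1 without a filter. With a library left out the counts ran from 0 to 4 for the knockout, 3 to 4 for shRNA 1 against scramble, 0 to 0 for shRNA 2 against scramble, 5 to 6 for scramble against vector, 3 to 5 for shRNA 1 against shRNA 2, and 0 to 4 for the knockout against the knockdown effect; they stayed at 2 for shRNA 1 against vector and 6 for shRNA 2 against vector. Fewer libraries enter these fits, and the lone library is assumed to vary like the other groups. Same-numbered libraries deviated with correlations of -0.469 between knockout control and p53 knockout and from -0.136 to 0.156 otherwise. The numbers thus do not pair them. In the knockout arm, libraries with opposite numbers deviated alike, and the reason was not tested. A replicate block gave the same counts of called genes in all 8 comparisons (0, 7, 1, 2, 6, 8, 6 and 0). In the knockout arm alone a replicate block and a crossed replicate block, both chosen after seeing the data, called 0 of the 10 genes and 2 and 67 genes overall. At 2 to 24 counts, TRAF1 in the knockdown arm is limited by depth.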
